A study of Homo sapiens with 6 samples.

Results

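Amino acid transporters are membrane proteins that carry amino acids into the cell or exchange one amino acid for another, and so feed the synthesis of protein, nucleotides and glutathione. Here 10 genes are described: SLC7A1, SLC7A5, SLC7A6, SLC7A11, SLC3A2, SLC38A1, SLC38A2, SLC1A4, SLC1A5 and SLC43A1. They were chosen by name. Every probe set whose platform annotation gave exactly one of these symbols was taken, 27 of the 54675 on the array. A probe set is a group of short probes that reports one transcript or a family of transcripts.

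RNA came from RL, a follicular lymphoma line of human B cells with the t(14,18) translocation, which both groups carry. No sample was treated. The aggregates (MALC, multicellular aggregates of lymphoma cells) were 10 days old, and the suspension cells were growing exponentially. Each group had 3 samples, numbered 1 to 3, with 1 Affymetrix U133 Plus array each. Since only 1 line was used and nothing in the labels makes the samples separate cultures, the p-values below cover the spread among these 6 arrays, which could be technical. Culture form, time in culture and growth phase cannot be told apart.

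The arrays numbered 1 stood apart in both groups. Over all probe sets the arrays numbered 2 and 3 correlated at 0.998 in either group, and the array numbered 1 with either of them at 0.995 to 0.996. Array medians lay between 80.7 and 81.7. The ratio of 3′ to 5′ signal of ACTB ran from 1.22 to 1.33 in MALC, against 1.31 to 1.54 in suspension, and that of GAPDH from 1.01 to 1.02, against 1.04 to 1.06, without overlap. The part of RNA quality in the results was not tested. The summed signal of 5 B cell markers (CD79A, CD79B, MS4A1, PAX5 and CD22) was 27829 to 31909 in MALC, against 28004 to 33433 in suspension, and none of the 5 passed the test. Summed signals of other cell types were low. They reached at most 345 for 5 T cell markers, 158 for 4 myeloid markers and 309 for 4 endothelial markers. The 5 fibroblast markers summed to 437 to 487 in MALC, against 499 to 954 in suspension, and without COL1A2 to 391 to 433, against 445 to 607. None of these markers that was bright enough to be tested passed, and their part in the results was not tested.

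Several of the transporters work in pairs. SLC3A2 encodes the heavy chain of CD98, which brings the light chains encoded by SLC7A5, SLC7A6 or SLC7A11 to the cell surface, where the light chain does the transport. In lymphoid cells, leucine and glutamine taken up by such carriers feed growth and mTORC1 signalling. When amino acids run short, ATF4, a transcription factor that pairs with C/EBP proteins, raises the transcription of many of these genes.

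Because ATF4 is a known regulator of several members, RefSeq promoter windows of assembly GRCh38.p14, from 250 bases before to 50 after each start site, were searched on both strands for TGATGNAA, the core of the C/EBP-ATF element. The table held 16 windows of 9 members, and SLC7A11 had no entry. TGATGNAA occurred in 5 of the 9 genes and 5 of the 16 windows, against 4.46% of the 27305 genes and 3.62% of the 35116 windows in the table. Since several members were known to be regulated by ATF4 beforehand, and members had more windows per gene, this contrast is not a test. The 30-base stretches with these matches are printed on the gene's strand, with the match in capitals:
SLC7A1, chr13:29595663-29595692, minus strand: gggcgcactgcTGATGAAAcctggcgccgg
SLC3A2, chr11:62881719-62881748, plus strand: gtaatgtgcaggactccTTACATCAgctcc
SLC1A4, chr2:64989381-64989410, plus strand: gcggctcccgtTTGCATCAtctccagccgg
SLC1A5, chr19:46784893-46784922, minus strand: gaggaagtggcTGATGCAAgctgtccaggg
SLC38A1, chr12:46266502-46266531, minus strand: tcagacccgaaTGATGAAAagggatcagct

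The SLC7A1 and SLC3A2 matches began 8 and 38 bases after the start site. Those of SLC1A4 and SLC38A1 began 7 and 4 bases before it and ran across it, and that of SLC1A5 began 97 bases before a downstream alternative start. In SLC3A2 and SLC1A4 the match lay on the opposite strand. CACGTG, the E-box bound by MYC with its partner MAX, was found in windows of 8.77% of all genes in the table. It reads alike on both strands, and matches in members included these:
SLC7A5, chr16:87869619-87869648, minus strand: gccggacgacgCACGTGctccgagctgggc
SLC43A1, chr11:57515796-57515825, minus strand: agcgggcgagtCACGTGcgcgtgaaactcg

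TGACNNNGC, the core of the antioxidant response element bound by NRF2, occurred in 5 of the 9 members, against 16.1% of genes. By window it occurred in 5 of 16, against 13.3% of windows in the table. Since members had more windows per gene, this contrast is not a test either. Matches of the 3 motifs did not overlap each other. SLC38A2 had no match to any of the 3 in its window, and bases outside the windows were not searched. Its 250 bases before the start site, of which 73.6% are G or C, are printed because the 3 probe sets of this gene rose together:
SLC38A2, chr12:46372774-46373023, minus strand: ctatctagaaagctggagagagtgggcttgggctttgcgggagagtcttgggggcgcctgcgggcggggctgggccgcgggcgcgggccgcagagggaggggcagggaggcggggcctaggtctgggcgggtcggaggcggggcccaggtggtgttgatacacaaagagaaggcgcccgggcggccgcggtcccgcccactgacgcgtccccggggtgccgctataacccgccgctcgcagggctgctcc

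A match to these letters is a description only. Of the genes with a TGATGNAA match, SLC7A1 and SLC1A5 fell in MALC. By their brightest probe sets, SLC3A2, SLC1A4 and SLC38A1 did not pass the test. SLC7A5 fell without such a match.

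In MALC, SLC38A2 and 1 of the 3 probe sets of SLC7A6 were higher, while SLC7A1, SLC7A5 and SLC1A5 were lower, each by less than 2-fold. Of the 26 member probe sets bright enough to be tested, 4 rose, 7 fell and 15 did not pass. Over the 32768 probe sets tested, 41.7% passed, 21.2% as higher and 20.4% as lower in MALC, so the members' share was near that of the array. Groups did not overlap in 10 of the 26, with MALC above in 4 and below in 6, against 56.1% of all probe sets (25.9% above and 30.3% below). The median log2 change of the members was −0.09, against −0.04 over all probe sets tested. By gene, with the brightest probe set standing for each, 2 of 10 rose and 3 fell, against 42.7% of 13765 genes called (19.0% higher and 23.7% lower). The same 5 genes had groups that did not overlap, against 56.9% of genes (23.1% with MALC above and 33.8% below). Changes are differences of log2(signal + 16), MALC minus suspension, tested with limma and called at a Benjamini-Hochberg adjusted p of 0.05. This scale understates the change of dim probe sets.

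**Figure D1:**
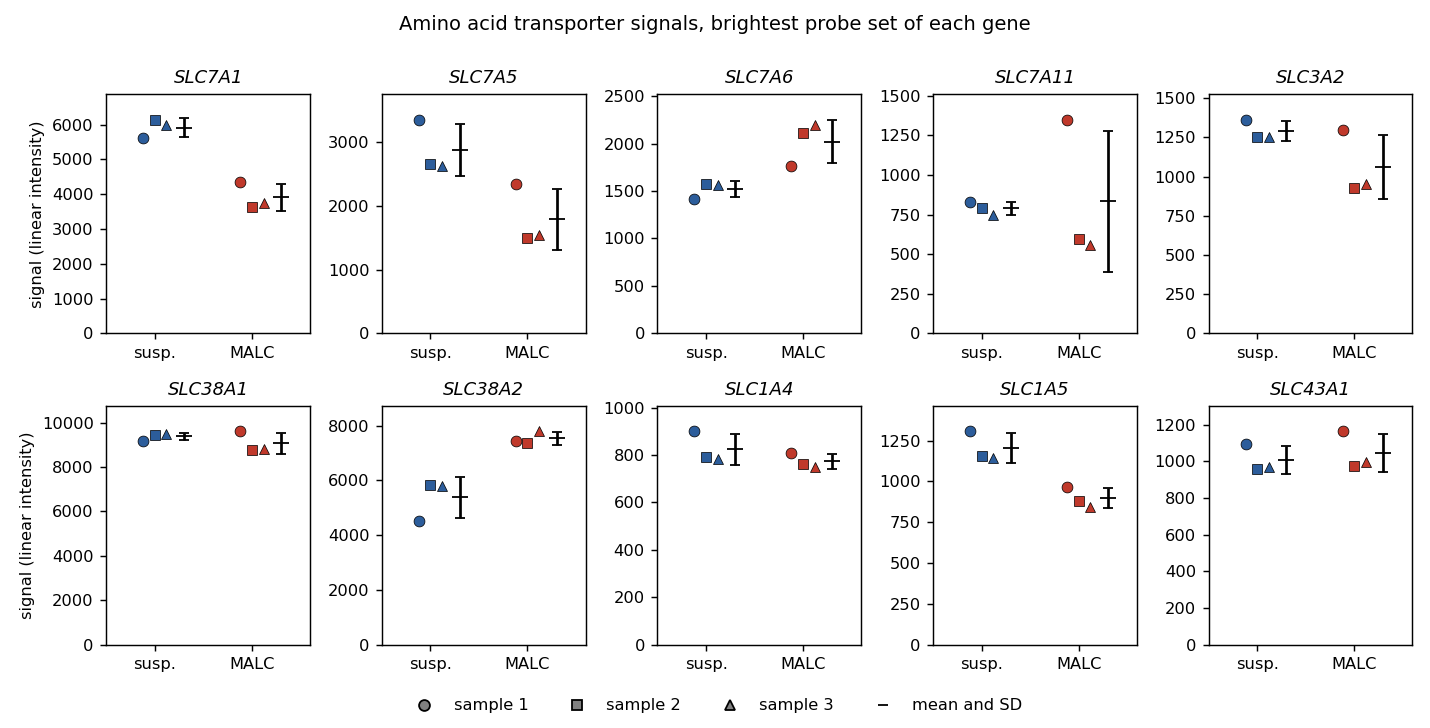
Linear signal of the brightest probe set of each of the 10 transporter genes in 3 suspension and 3 MALC arrays, with the mean and SD beside the points. SLC38A2 and SLC7A6 lie higher in all MALC arrays, SLC7A1, SLC7A5 and SLC1A5 lower, and for SLC7A11 MALC 1 (1348) lies above MALC 2 (596) and MALC 3 (559).

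SLC38A2 encodes a sodium-coupled carrier of small neutral amino acids such as alanine and glutamine. Its brightest probe set (222982_x_at) had signals of 7427, 7379 and 7803 in MALC 1 to 3 and 4506, 5844 and 5800.1 in suspension 1 to 3. All MALC arrays lay above all suspension arrays, and suspension 1 was the lowest. The mean rose from 5383 ± 760.2 to 7536 ± 232 (SD, n = 3 each), a 1.41-fold rise (log2 change 0.49, SE 0.0988, limma adjusted p = 0.00600). The probe set 218041_x_at had 4733, 4717 and 5035 in MALC and 2772, 3587 and 3520.1 in suspension, a 1.47-fold rise (adjusted p = 0.00375). The last, 220924_s_at, had 4291, 4614 and 4698 in MALC against 2538, 3429 and 3235 in suspension, a 1.49-fold rise (adjusted p = 0.00512). The 3 probe sets gave nearly the same change, with suspension 1 lowest and no overlap in each. All 3 carry the suffix _s_at or _x_at, which Affymetrix gives to probes that match several transcripts or may bind others. Their calls held in every alternative setting run, with adjusted p at most 0.0481. The antisense transcript SLC38A2-AS1 had signals of 160.2, 144 and 167 in MALC and 181, 163 and 154 in suspension and did not pass (log2 change −0.07, adjusted p = 0.527).

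SLC38A1 encodes the sister carrier, which moves glutamine in particular. Its brightest probe set (224579_at) had 9619, 8778 and 8805 in MALC and 9181, 9450.1 and 9506 in suspension. The groups overlapped, and the log2 change was −0.05 (SE 0.0471, adjusted p = 0.422). The probe set 218237_s_at had 7963, 7803 and 8039 in MALC against 7934, 8856 and 8471 in suspension (log2 change −0.08, adjusted p = 0.204). A dimmer one, 224580_at, had 464, 368 and 398 in MALC and 452, 604 and 573 in suspension. It fell 1.31-fold (log2 change −0.39, SE 0.130, adjusted p = 0.0465), although MALC 1 lay above suspension 1. Blocking on the sample number ended this call (adjusted p = 0.0751), as did leaving out any array numbered 2 or 3 (up to 0.157), and over all alternatives adjusted p ran from 5.01e-06 to 0.297. The dimmest, 236857_at, had 82.9 to 101 in MALC, against 95.9 to 107 in suspension (adjusted p = 0.385).

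SLC7A1 encodes a carrier of arginine, lysine and ornithine that works without SLC3A2. Its brightest probe set (212295_s_at) had 4362, 3635 and 3735 in MALC and 5601, 6135 and 5981 in suspension. All MALC arrays lay below all suspension arrays, with MALC 1 the highest of the aggregates. The mean fell from 5906 ± 275 to 3911 ± 394 (SD, n = 3 each), 1.51-fold lower (log2 change −0.60, SE 0.0781, adjusted p = 0.00112). The call held in all alternatives, with adjusted p at most 0.0351. The probe set 212290_at had 813, 702 and 630.1 in MALC and 1125, 1089 and 1060.1 in suspension, 1.52-fold lower (adjusted p = 0.00268; at most 0.0507 over its alternatives, with the arrays numbered 2 and 3 averaged). The probe set 212292_at had 296, 278 and 263 in MALC against 376, 330.0 and 363 in suspension, 1.26-fold lower (adjusted p = 0.0129). The groups did not overlap in any of these 3. The call of 212292_at was lost without MALC 3 (0.0516) or suspension 3 (0.0508), within a range of 0.00146 to 0.101 over its alternatives. The remaining SLC7A1 probe sets were dim. The probe set 215979_s_at had 67.3 to 80.3 in MALC, against 71.9 to 94.9 in suspension (adjusted p = 0.496). The last, 206566_at, had 21.1 to 25.5 in MALC, against 26.4 to 32.5 in suspension, and lay under the filter at a signal of 53.4, the only member probe set not tested.

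SLC3A2, the CD98 heavy chain, had 1 probe set (200924_s_at), with 1295, 930.1 and 952 in MALC and 1362, 1254 and 1253 in suspension. MALC 1 lay within the suspension range, and MALC 2 and MALC 3 below it. The means were 1059 ± 205 in MALC and 1289.7 ± 62.7 in suspension (SD, n = 3 each), and the log2 change of −0.30 (SE 0.129) did not pass (adjusted p = 0.102). It passed when the sample number was a block (adjusted p = 0.0384). Without MALC 1 the change was −0.45 (adjusted p = 0.00165), within a range of 1.26e-05 to 0.372 over all alternatives.

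SLC7A5 encodes the light chain that imports leucine and other large neutral amino acids, often in exchange for glutamine. Its 1 probe set (201195_s_at) had 2340.3, 1490.5 and 1538 in MALC and 3350.1, 2652 and 2629 in suspension. All MALC arrays lay below suspension, with MALC 1 nearest to it. The mean fell from 2877 ± 409.8 to 1789.5 ± 478 (SD, n = 3 each), 1.63-fold lower (log2 change −0.70, SE 0.180, adjusted p = 0.0167). The call was lost without MALC 2 (0.0660) or MALC 3 (0.0658). Without MALC 1 the change was −0.91 (adjusted p = 0.000629), and over all alternatives adjusted p ran from 8.40e-09 to 0.113.

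SLC7A6 encodes a light chain that exchanges arginine and other cationic amino acids for glutamine and other neutral ones. Its brightest probe set (203580_s_at) had 1759.7, 2107 and 2192 in MALC and 1419, 1575 and 1563 in suspension. All MALC arrays lay above suspension, with MALC 1 the lowest of them. The mean rose from 1519 ± 86.7 to 2019.6 ± 229 (SD, n = 3 each), a 1.32-fold rise (log2 change 0.40, SE 0.0964, adjusted p = 0.0127). The call was lost without MALC 2 (0.0576) or MALC 3 (0.0501), and adjusted p ran from 1.89e-06 to 0.122 over all alternatives. The other probe sets of SLC7A6 did not pass. The probe set 203579_s_at had 389.9, 491 and 459 in MALC and 393, 419 and 456 in suspension (log2 change 0.07, adjusted p = 0.603). The probe set 203578_s_at had 198, 235 and 231 in MALC against 228, 233 and 229 in suspension (log2 change −0.06, adjusted p = 0.596). With the mean of the 3 probe sets standing for the gene, the log2 change was 0.14 and did not pass (adjusted p = 0.225).

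SLC7A11 encodes the light chain that imports cystine in exchange for glutamate and so supplies cysteine for glutathione. Its brightest probe set (209921_at) had 1348 in MALC 1 but 596 in MALC 2 and 559 in MALC 3, around suspension signals of 830.1, 790.2 and 748. MALC 1 thus lay above all suspension arrays and the other aggregates below them. The means were 834 ± 446 in MALC and 789.5 ± 40.9 in suspension (SD, n = 3 each), and the log2 change of −0.04 (SE 0.299) did not pass (adjusted p = 0.926). The probe set 217678_at split in the same way, with 731, 350.3 and 278 in MALC and 479, 438 and 454 in suspension (log2 change −0.13, adjusted p = 0.751). The dimmest, 207528_s_at, had 121, 54.9 and 58.4 in MALC against 128, 102 and 99.9 in suspension (log2 change −0.48, adjusted p = 0.143), and MALC 1 lay within its suspension range. This probe set passed when the sample number was a block (adjusted p = 0.0331).

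Without MALC 1 all 3 SLC7A11 probe sets were lower in MALC, with log2 changes of −0.44 (limma adjusted p = 0.00291), −0.53 (0.00600) and −0.79 (0.000991), from 2 MALC arrays that were nearly alike. Over all alternatives the adjusted p of 209921_at ran from 7.82e-05 to 0.994, that of 217678_at from 0.000437 to 0.984 and that of 207528_s_at from 8.34e-06 to 0.402. The antisense transcript SLC7A11-AS1 had 20.6 to 22.6 in MALC, against 21.5 to 23.2 in suspension, under the filter.

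**Figure D2:**
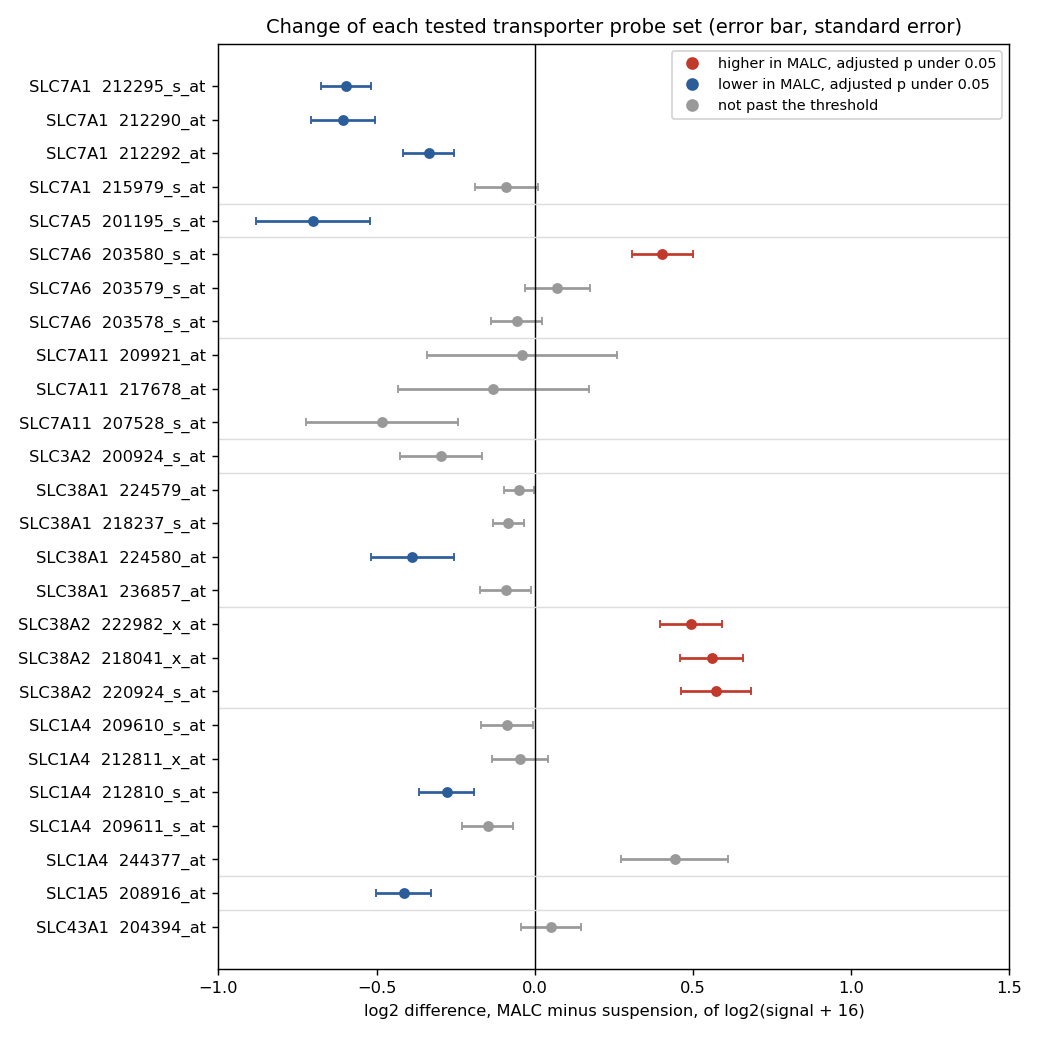
Log2 difference, MALC minus suspension, of log2(signal + 16) for the 26 tested probe sets of the transporter genes, with the standard error from limma and the call as colour. The 3 SLC38A2 probe sets lie between 0.49 and 0.57, while the probe sets of SLC7A6, SLC38A1 and SLC1A4 differ within a gene and those of SLC7A11 have wide errors.

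Light chains and heavy chain were compared within each array. The log2 value of SLC7A5 minus that of SLC3A2 was lower in every MALC array than in every suspension array, a difference between groups of −0.41. The value of SLC7A6 minus SLC3A2 was higher in every MALC array, by 0.70, with the brightest probe set of SLC7A6. With the mean of its probe sets the difference was 0.44, MALC 1 lay below suspension 2 and suspension 3, and p was 0.3 by an exact permutation test. The value of SLC7A11 minus SLC3A2 differed by 0.26, with MALC 1 apart from the other 5 arrays. Exact two-sided permutation tests over samples gave p = 0.1 for SLC7A5 and for SLC7A6, the smallest that 3 against 3 allows, so no pair could pass 0.05, and p = 0.5 for SLC7A11. Adjusted over the 3 pairs these were 0.15, 0.15 and 0.5. Without MALC 1 the SLC7A11 difference was 0.0068.

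SLC1A5 encodes a sodium-dependent exchanger that brings in glutamine. Its 1 probe set (208916_at) had 969, 881 and 845 in MALC and 1309, 1156 and 1145 in suspension. All MALC arrays lay below suspension. The mean fell from 1203 ± 91.7 to 898 ± 63.7 (SD, n = 3 each), 1.33-fold lower (log2 change −0.41, SE 0.0866, adjusted p = 0.00715). The call held with each array left out (0.00284 to 0.0352) and was lost with the arrays numbered 2 and 3 of each group averaged (0.0864); the lowest adjusted p over the alternatives was 1.83e-05.

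SLC1A4 encodes a related carrier of alanine, serine and cysteine, and its 5 probe sets differed. The brightest (209610_s_at) had 811, 762 and 749 in MALC and 902, 790.4 and 784 in suspension (log2 change −0.09, SE 0.0822, adjusted p = 0.414). The probe set 212811_x_at had 589 to 649 in MALC, against 594 to 708 (adjusted p = 0.696), and 209611_s_at had 139 to 158, against 156 to 182 (adjusted p = 0.179). The groups of these 3 overlapped. The probe set 212810_s_at had 416, 399 and 347 in MALC and 494, 466 and 456 in suspension, without overlap, and was 1.21-fold lower (log2 change −0.28, adjusted p = 0.0361). That call was lost without any single array except MALC 1 (0.0174 to 0.108 with 1 array left out). In the opposite direction, 244377_at had 185, 155 and 130.1 in MALC and 140.2, 86.3 and 109 in suspension. Its groups overlapped, and its log2 change of 0.44 did not pass (adjusted p = 0.0706), but passed when the sample number was a block (0.0209; 0.00190 to 0.193 over all alternatives).

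SLC43A1 encodes a carrier that lets leucine and other large neutral amino acids pass without exchange. Its 1 probe set (204394_at) had 1164, 974 and 994 in MALC and 1095, 956 and 967 in suspension. The groups overlapped, and the log2 change was 0.05 (SE 0.0957, adjusted p = 0.694). In both groups the array numbered 1 was the highest.

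MALC 1 carried more transporter signal than the other aggregates in most of the 10 genes. By gene it was the highest of the 3 MALC arrays in 8 of 10 and the lowest in 1, against 44.1% and 35.4% of all genes tested. In 4 of the 26 probe sets, the 3 of SLC7A11 and that of SLC7A5, it lay at least 0.5 above the mean of MALC 2 and MALC 3 on the log2 scale, against 2.11% of all probe sets (2 of 10 genes, against 2.48%). For the brightest SLC7A11 probe set MALC 1 was 2.30-fold above that mean, and for 217678_at and 207528_s_at 2.28-fold and 1.89-fold. The excess on the log2 scale was 0.62 for SLC7A5 and 0.45 for SLC3A2. SLC7A6 went the other way (203580_s_at, −0.29), and the brightest SLC38A2 probe set hardly differed (−0.03). Suspension 1 lay 0.11 above the other suspension arrays for 209921_at of SLC7A11 and 0.34 for SLC7A5.

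Some genes of the ATF4 branch split as SLC7A11 did. ASNS, the asparagine synthetase gene and a known ATF4 target, had 9768, 5132 and 5438 in MALC 1 to 3 and 6771, 5575 and 5468 in suspension. TRIB3, a pseudokinase induced by stress, had 2519, 1439 and 1504 in MALC and 1965, 1668 and 1663 in suspension. CHAC1, an enzyme that degrades glutathione, had 271, 162 and 155 in MALC against 203, 214 and 202 in suspension, and the transcription factor ATF5 had 762, 464 and 450.4 in MALC against 521, 526 and 507 in suspension. In these 4 genes, singled out after their values were seen, MALC 1 lay above all suspension arrays and the other aggregates below them. None of the 4 passed (adjusted p 0.653 to 0.998). Without MALC 1, CHAC1 (limma adjusted p = 0.00395, 0.000519 to 0.991 over its alternatives) and TRIB3 (0.0456, 0.00444 to 0.999) were lower in MALC, and without both arrays numbered 1 so was ATF5 (0.0262, 0.0262 to 0.955). Other genes listed as regulators did not split this way. DDIT3 had all MALC arrays above suspension. CEBPB, a C/EBP partner of ATF4, had 1575, 1091 and 1137 in MALC and 1236, 974 and 972 in suspension. CEBPG and PPP1R15A did not split either. SESN2, of the list of amino acid sensing genes, did, with 479, 352 and 359 in MALC and 403, 394 and 367 in suspension. Among the members, the brightest SLC38A1 probe set split so too. It had 9619, 8778 and 8805 in MALC and 9181, 9450.1 and 9506 in suspension. How often this split occurs over all genes was not counted. ATF4 itself, which is controlled largely at translation, had 10992 to 11603 in MALC, against 11042 to 11664 in suspension (log2 change −0.02, adjusted p = 0.698). The part of these genes, or of the array itself, in the transporter values of MALC 1 was not tested.

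**Figure D3:**
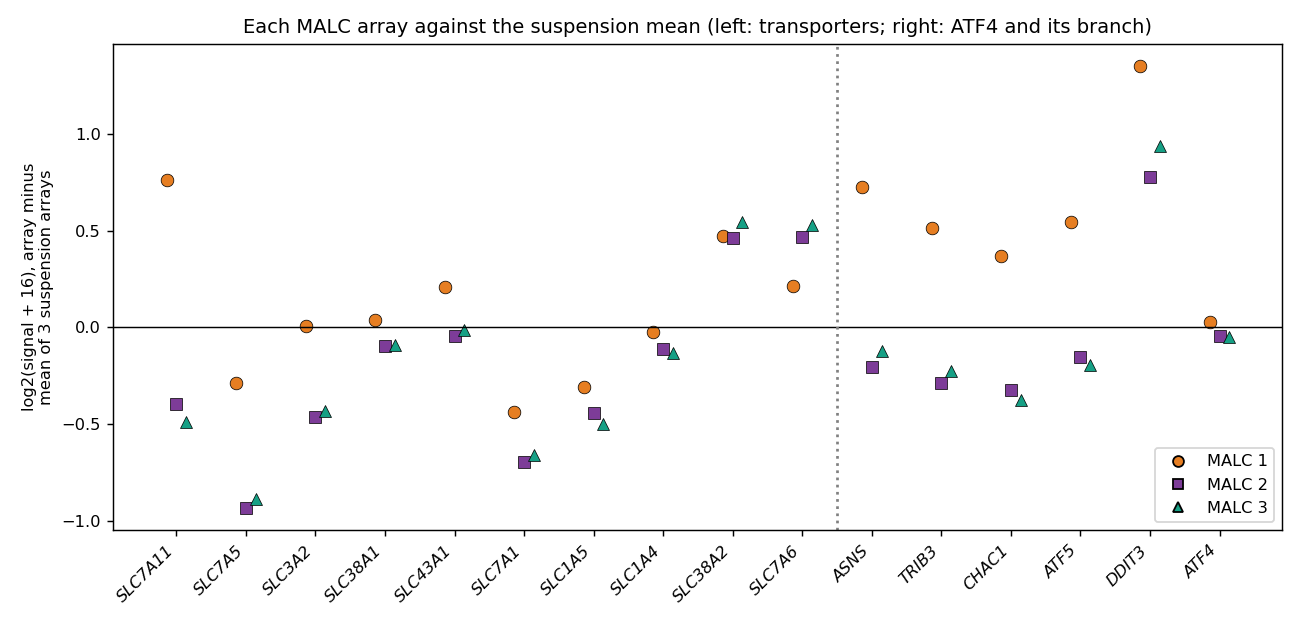
Log2(signal + 16) of each MALC array minus the mean of the 3 suspension arrays, for the brightest probe set of the 10 transporter genes (left of the dotted line) and of ATF4 and 5 genes of its branch (right). MALC 1 lies above 0 and the other aggregates below it for SLC7A11, ASNS, TRIB3, CHAC1 and ATF5. The same holds for SLC3A2, SLC38A1, SLC43A1 and ATF4, with MALC 1 at 0.007, 0.04, 0.21 and 0.03. All 3 lie above 0 for SLC38A2, SLC7A6 and DDIT3.

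Of 19 genes listed as regulators of transporter transcription or turnover, 4 rose and 2 fell, with a median log2 change of 0.08 against −0.06 over all genes tested, of which 19.0% rose and 23.7% fell (42.7% together). DDIT3, which encodes the stress transcription factor CHOP, had 1956, 1311 and 1466 in MALC and 729, 804 and 744 in suspension, a 2.03-fold rise (limma adjusted p = 0.00127). EIF2AK4, the kinase GCN2 that senses uncharged tRNA, had 225, 298 and 258 in MALC and 161, 217 and 199.9 in suspension (adjusted p = 0.0372, 0.000602 to 0.125 over its alternatives). EIF2AK1, a related kinase, rose 1.32-fold (adjusted p = 0.00798), and BACH1, a repressor of antioxidant genes, 1.43-fold (adjusted p = 0.0422). Both calls were lost with the mean of their probe sets, 0.934 for EIF2AK1, whose change then had the opposite sign, and 0.679 for BACH1. The BACH1 call was also lost without MALC 1 (0.0504), MALC 2 (0.110) or MALC 3 (0.116), within 1.99e-05 to 0.679 over its alternatives. EIF2S1, the translation factor subunit these kinases phosphorylate, had 4892, 4127 and 3810.0 in MALC and 7428, 7021 and 6872 in suspension, 1.67-fold lower (adjusted p = 0.000866). KEAP1, which marks NRF2 for degradation, had 726, 623 and 610.0 in MALC against 1060.0, 995 and 946 in suspension, 1.52-fold lower (adjusted p = 0.00163). NFE2L2, the NRF2 gene, had 2165 to 2267 in MALC, against 1992 to 2029, without overlap, but its log2 change of 0.14 did not pass (adjusted p = 0.0836). MYC had 6207, 6291 and 5741 in MALC and 7726, 6205 and 6426 in suspension and did not pass (log2 change −0.15, adjusted p = 0.191).

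Among genes listed as other amino acid transporters or their relatives, 25 of 43 were bright enough to be tested. Of these 3 fell and 0 rose in limma, with 7 at an unadjusted p under 0.05, and 1 rose when the sample number was a block. Over all genes tested 19.0% rose and 23.7% fell (42.7% together), and 7087 of 13765 had an unadjusted p under 0.05 in limma. The median log2 change of the list was −0.12, against −0.06 over all genes. SLC43A3, a relative of SLC43A1 that carries purine bases, had 1273, 933 and 908 in MALC and 2029.6, 1842 and 1806 in suspension, 1.83-fold lower (adjusted p = 0.00184). Its other probe set was 1.72-fold lower (adjusted p = 0.00446). SLC38A9, a lysosomal arginine sensor and carrier singled out after its values were seen, had probe sets that disagreed. The brighter gave a log2 change of −0.19 (adjusted p = 0.112), while the dimmer had 152, 196 and 181 in MALC and 85.3, 63.0 and 62.3 in suspension, a 2.23-fold rise (adjusted p = 0.000583). With the mean of both the gene was called higher (adjusted p = 0.00176), and in 4 other alternatives lower. SLC36A1, a proton-coupled carrier found on lysosomes, had 141, 141 and 135 in MALC against 205, 185 and 186 in suspension, 1.34-fold lower (adjusted p = 0.00169). CTNS, the lysosomal cystine exporter, was 1.13-fold lower (adjusted p = 0.0481), a call lost when any single array was left out and when the sample number was a block (0.0649; 0.0171 to 0.172 over all alternatives). The remaining light chains did not pass. SLC7A7 had 797, 912 and 877 in MALC and 825, 766 and 686 in suspension (log2 change 0.18, adjusted p = 0.145), and SLC7A8 197, 194 and 199 in MALC against 218, 215 and 211 in suspension (log2 change −0.12, adjusted p = 0.119). SLC43A2, a leucine carrier like SLC43A1, did not pass either (log2 change −0.09, adjusted p = 0.301). Of the 43, 15 lay under the filter and 3 had no probe set naming them alone.

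Amino acid supply is read at the lysosome by the Rag GTPases and their regulators, which switch on the kinase complex mTORC1. Of the 29 tested genes of this list, 12 rose and 7 fell, with a median log2 change of 0.17. Over all genes 42.7% were called, 19.0% higher and 23.7% lower. SESN3, a sestrin that restrains mTORC1, had 338, 549 and 592 in MALC and 50.7, 115 and 145 in suspension, a 4.42-fold rise (adjusted p = 0.00209). RRAGD, a Rag GTPase, had 828, 629 and 700.0 in MALC against 259, 245 and 246 in suspension, a 2.75-fold rise (adjusted p = 0.000162). SAMTOR, a sensor of S-adenosylmethionine, had 755, 856 and 833 in MALC against 324, 335 and 345 in suspension, a 2.37-fold rise (adjusted p = 8.65e-05). The groups of these 3 did not overlap. The genes that fell included the kinase MTOR (log2 change −0.70, adjusted p = 0.00146) and SEH1L, a subunit of GATOR2 and of the nuclear pore (−0.78, adjusted p = 0.000575).

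Of 17 tested enzymes that use the carried amino acids, 3 rose and 2 fell, against 19.0% and 23.7% of all genes (42.7% together), with a median log2 change of −0.13 against −0.06 over all genes. ARG2, the mitochondrial arginase, had 963, 352 and 380.4 in MALC and 237, 201 and 174 in suspension, a 2.39-fold rise (adjusted p = 0.0218) with MALC 1 far above the other aggregates. The call was lost without suspension 2 (0.0563) or suspension 3 (0.0688), within a range of 5.94e-08 to 0.123 over its alternatives. The log2 change of ARG2 was 1.26 with all arrays, 0.81 without MALC 1 (adjusted p = 0.00143) and 0.39 without _s_at and _x_at probe sets (adjusted p = 0.123). BCKDHA, a subunit of the enzyme that commits branched-chain amino acids to breakdown, had 1176, 1117 and 1138 in MALC against 770.2, 784 and 777 in suspension, a 1.46-fold rise (adjusted p = 0.000662). GOT1, an aspartate aminotransferase, had 1939, 1544 and 1435 in MALC against 2447, 2068 and 2093 in suspension, 1.35-fold lower (adjusted p = 0.0250, 3.80e-07 to 0.138 over its alternatives). The number of falls in this list was 8 without MALC 1 and 5 when the sample number was a block.

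**Figure D4:**
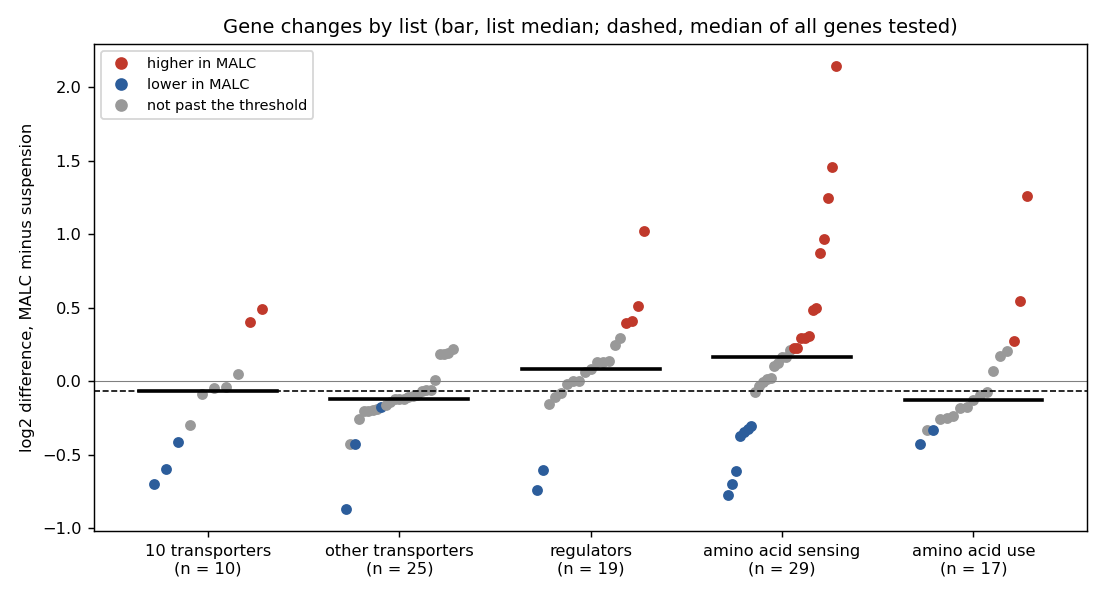
Log2 difference, MALC minus suspension, of each tested gene in the 10 transporter genes and in the lists of other transporters, regulators, amino acid sensing and amino acid use, with the list median and the median of all 13765 genes tested (−0.06). The 10 transporters lie between −0.70 and 0.49, and the sensing genes between −0.78 and 2.14.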

How the data were processed

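The authors deposited linear intensities, a single value for each probe set in each of 6 arrays. MAS5 is the only tool in the submitters' processing notes, and its version and scaling are not given in the sources used here; scaling would hide a shift of all transcripts. Groups and sample numbers came from the titles.

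After removal of 62 control probe sets, 41091 of 54613 named 1 symbol in the platform annotation, updated with RefSeq by Entrez identifier. The 32768 probe sets at or above the 40th percentile of the mean were tested as log2(value + 16) by the lmFit and eBayes functions of limma (version 3.58.1, R version 4.3.3), with an intensity trend, two-sided and Benjamini-Hochberg adjusted. The model held the group alone, and 13765 genes were tested by their brightest probe set. The fit of the probe sets was tried on simulated data, and the outcome is not given here.

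Whether the sample numbers mark pairs is not given. The calls in the report leave the number out, and a block on it was run as an alternative. Samples with the same number deviated together from their group means (r = 0.28, 0.18 and 0.19), but so did samples 2 and 3 when crossed (0.15 and 0.20). Since the arrays numbered 1 stood apart in both groups, these values cannot show that samples 2 and 3 are paired.

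The text names every member probe set, per list up to 3 called genes ranked by size of change, and ATF4, NFE2L2, MYC, SLC7A7, SLC7A8 and SLC43A2; further genes were picked on their values. Members and lists were chosen with earlier results of these data known. There were 17 alternatives, and 2 were added after seeing the data. One promoter sequence is not reported here.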

Additional observations from a re-analysis of the deposited data

How the results depend on the processing

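All numbers here are calls by limma at an adjusted p of 0.05, beside the values in the report. With 1 array left out, member probe sets numbered 3 to 5 higher and 3 to 11 lower, and member genes 1 to 2 higher and 2 to 5 lower. Other transporters numbered 0 to 1 and 2 to 5, regulators 2 to 4 and 2 to 4, sensing genes 8 to 13 and 6 to 7, and enzymes 1 to 3 and 1 to 8. Over all probe sets, 4956 to 7575 were then higher and 4411 to 7460 lower, against 6948 and 6701 with all arrays. Over all genes, 1880 to 2859 were higher and 2113 to 3632 lower, against 2611 and 3266 with all arrays. Calls thus moved over the whole array as well as in the lists. With array weights, 12 member probe sets and 5 member genes were lower, other transporters were 3 higher and 13 lower, 4 regulators were lower, and enzymes were 6 higher and 9 lower. Over the whole array these weights gave 9400 probe sets higher and 10306 lower, and 3650 genes higher and 5230 lower. Without both arrays numbered 1, 13 member probe sets and 6 member genes were lower, other transporters were 3 higher and 6 lower, 6 regulators were lower, and enzymes were 5 higher and 10 lower. Over the whole array 9084 probe sets were then higher and 9075 lower, and 3491 genes higher and 4233 lower. With the arrays numbered 2 and 3 of each group averaged, 1 member probe set was lower, member genes were 1 higher and 1 lower, 1 regulator was higher, sensing genes were 6 higher and 2 lower, and enzymes were 1 higher and 0 lower. Over the whole array 3101 probe sets were then higher and 2027 lower, and 1231 genes higher and 1113 lower. The last pair of settings was chosen after seeing the data. With the mean of probe sets, 1 member gene and 1 other transporter were higher and 4 enzymes lower, while 2559 of all genes were higher and 3360 lower. Without _s_at and _x_at probe sets, 0 member genes were higher, 1 other transporter was lower, 2 regulators were higher, sensing genes were 5 higher and 4 lower, and 1 enzyme was higher; SLC38A2, SLC7A6, SLC7A5 and SLC3A2 then had no value, so the genes called higher were not tested. Over the 10946 genes tested in that setting, 2037 were higher and 2360 lower. Quantile normalization gave 6 lower other transporters, and no filter 5. Of all genes, 3644 were lower with quantile normalization and 3263 with no filter. The cause of these differences was not tested.

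With the sample number as a replicate block, 1 other transporter was higher and 5 enzymes were lower. Of all genes, 2846 were then higher and 3550 lower. The block changed the call of 4 member probe sets (of SLC7A11, SLC3A2, SLC38A1 and SLC1A4, in the report) and of no other member probe set. The paired permutation test cannot go below 0.25, which it gave for SLC7A5 and SLC7A6 against SLC3A2, and it gave 0.5 for SLC7A11. With 1 array left out, the differences from SLC3A2 were −0.46 to −0.33 for SLC7A5, 0.57 to 0.95 for SLC7A6 and 0.0068 to 0.41 for SLC7A11. Of 963 values of the member probe sets, member genes and genes named by rule under an alternative, 874 stayed on their side of the threshold, 52 lost a call and 37 gained one. In 21 of the 874, from 13 probe sets or genes that did not pass either way, the sign was opposite to that in the report. The small number of arrays limits the precision.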
